A study of Mus musculus with 6 samples.

Results

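The regions described here are methylated stretches in the gene deserts of the mouse genome, the parts of a chromosome where the nearest start of a coding gene is far away. Each was found by methylated DNA immunoprecipitation followed by sequencing (MeDIP-seq). The assay enriches sheared genomic DNA with an antibody to 5-methylcytosine, and peaks are the stretches where its reads pile up. A peak was taken as a gene desert peak if the authors' annotation classed it as intergenic, named a nearest gene and placed the peak's summit more than 500 kb from that gene's transcription start site, on one of the 19 autosomes. A peak listed with several genes was counted once. Peaks of different libraries that shared at least 1 bp were merged, which gave 3218 gene desert regions among 46696 autosomal regions. They came from 10324 of the 141949 autosomal peaks of the 6 lists.

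The libraries were made from the hippocampus of male C57BL/6 mice, 6 in all, taken on postnatal day 21. The ethanol group, 3 mice, had received 2.5 g/kg ethanol in 0.15 M NaCl under the skin of the back, as 2 injections on postnatal day 4 and 2 on postnatal day 7. The saline group, 3 mice, had received 0.15 M saline on the same schedule. All were littermates of one sex per the labels, but the litter of each animal is not stated, and the 6 animals enter the tests as if independent. Whole hippocampus holds neurons, glia and vessel cells, so a peak cannot be assigned to a cell type, and as no expression was analysed here the tissue label was not checked against marker genes. The lists held 18922 to 34904 peaks in all, and their length differed between libraries: 23141, 34904 and 28386 peaks in the ethanol and 18922, 22703 and 20776 in the saline libraries. Sequence without a peak did not pass the caller's threshold in that library, which does not show that it was unmethylated.

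In mammalian genomes most CpG dinucleotides outside CpG islands carry methylation, and repeats derived from transposons are among the most heavily methylated sequences. Gene deserts are poor in CpG and in genes, and many of them flank genes of development and of neuronal cell adhesion, for which they can hold distant regulatory elements. An antibody against 5-methylcytosine enriches fragments in proportion to the methylated cytosines that each one carries, so sequence rich in CpG is recovered most easily.

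Sequences of 5 regions are given as examples, chosen by q rank and by presence across libraries, and not as a typical sample of these peaks. Each is the central 300 bases of a region, read from the plus strand of the RefSeq copy of GRCm38 (the assembly also called mm10), with every CpG in capitals. The first pair, chr2:98666988-98667287 and chr2:98662700-98662999, ranked highest by q across the 6 lists, both nearest to Lrrc4c, which encodes a synaptic adhesion protein that binds netrin-G. The second pair had peaks in all ethanol and in no saline libraries. They lie nearest to Efnb2, the gene of the axon guidance ligand ephrin-B2 (chr8:7163743-7164042), and to Grik2, the gene of a kainate receptor subunit (chr10:47784110-47784409). The last had peaks in all saline and in no ethanol libraries and lies nearest to Ctnnd2, the gene of delta-catenin (chr15:29641198-29641497).
Lrrc4c region 1: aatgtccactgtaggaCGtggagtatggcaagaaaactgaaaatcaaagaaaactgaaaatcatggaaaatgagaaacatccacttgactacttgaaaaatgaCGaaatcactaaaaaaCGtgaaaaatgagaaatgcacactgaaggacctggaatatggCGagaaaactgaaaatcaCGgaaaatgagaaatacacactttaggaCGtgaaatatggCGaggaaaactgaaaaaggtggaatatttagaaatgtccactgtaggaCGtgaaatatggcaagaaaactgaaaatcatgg
Lrrc4c region 2: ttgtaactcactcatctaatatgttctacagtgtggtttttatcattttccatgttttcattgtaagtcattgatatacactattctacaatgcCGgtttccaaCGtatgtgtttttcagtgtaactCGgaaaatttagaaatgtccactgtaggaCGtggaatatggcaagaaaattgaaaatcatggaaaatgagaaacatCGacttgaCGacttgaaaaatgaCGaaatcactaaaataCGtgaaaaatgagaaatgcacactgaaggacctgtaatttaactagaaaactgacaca
Efnb2 region: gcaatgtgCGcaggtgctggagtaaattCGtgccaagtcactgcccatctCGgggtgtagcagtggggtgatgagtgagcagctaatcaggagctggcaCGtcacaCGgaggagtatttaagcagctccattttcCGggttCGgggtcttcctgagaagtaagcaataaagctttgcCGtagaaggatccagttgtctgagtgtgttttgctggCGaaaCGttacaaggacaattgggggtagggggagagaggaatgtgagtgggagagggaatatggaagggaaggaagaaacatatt
Grik2 region: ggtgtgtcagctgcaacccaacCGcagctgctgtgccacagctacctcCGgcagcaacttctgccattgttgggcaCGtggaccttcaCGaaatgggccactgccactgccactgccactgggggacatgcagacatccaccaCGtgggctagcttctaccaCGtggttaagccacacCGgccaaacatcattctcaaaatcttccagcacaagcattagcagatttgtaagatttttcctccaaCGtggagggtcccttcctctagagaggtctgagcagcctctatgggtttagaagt
Ctnnd2 region: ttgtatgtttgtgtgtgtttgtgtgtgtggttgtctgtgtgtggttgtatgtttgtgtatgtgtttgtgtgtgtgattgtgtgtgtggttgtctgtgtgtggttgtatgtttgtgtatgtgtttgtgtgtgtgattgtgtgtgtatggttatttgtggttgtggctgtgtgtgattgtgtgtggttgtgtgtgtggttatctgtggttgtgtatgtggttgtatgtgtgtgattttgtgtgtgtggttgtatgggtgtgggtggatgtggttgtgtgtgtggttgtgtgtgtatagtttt

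The first 4 windows held 8, 8, 10 and 8 CpG, while the saline-specific window held 0. The Ctnnd2 window consisted for 84.6% of its bases of TG or GT dinucleotides. By general knowledge the Lrrc4c windows resemble mouse major satellite, the tandem repeat of chromatin beside the centromeres; no repeat annotation was used here to check this. Only 9.67% of the Grik2 window was soft-masked, the mark that the assembly gives to repeats, against 87.3% of the Efnb2 window. The regions shown had 1 or 2 copies in the assembled chromosomes, counted as described below. Copies in unassembled sequence were not counted, so the 2 copies of each Lrrc4c region are not a count for the whole genome. Of all gene desert regions, 31.7% had over 100 copies by this count, and none of these is shown.

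Gene desert peaks were found in every library, and the longest list held the most. There were 1545, 2395 and 2063 gene desert peaks in the ethanol libraries and 1384, 1550 and 1387 in the saline libraries. The groups overlapped, since the lowest ethanol library lay below the highest saline library. The mean was 2001 ± 428 with ethanol and 1440.33 ± 94.99 with saline (SD, n = 3 each), a 1.39-fold difference that did not pass the two-sided exact permutation test (p = 0.2; 0.28 after Benjamini-Hochberg adjustment over 7 measures). With 3 animals against 3, the smallest p this test can give is 0.1. As a share of the autosomal peaks of the same list, gene desert peaks made up 6.98%, 7.18% and 7.63% in the ethanol and 7.72%, 7.13% and 7.02% in the saline libraries. Wilson 95% intervals of these shares, which cover counting error only, ran from 6.65% to 7.33% at the lowest share and from 7.34% to 8.12% at the highest. The mean shares were 7.26% ± 0.332 and 7.29% ± 0.375 (exact permutation p = 0.9), and leaving out ethanol 1, ethanol 2 or saline 1 turned the sign of this difference, to 0.117, 0.0177 and 0.190 percentage points.

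**Figure D1:**
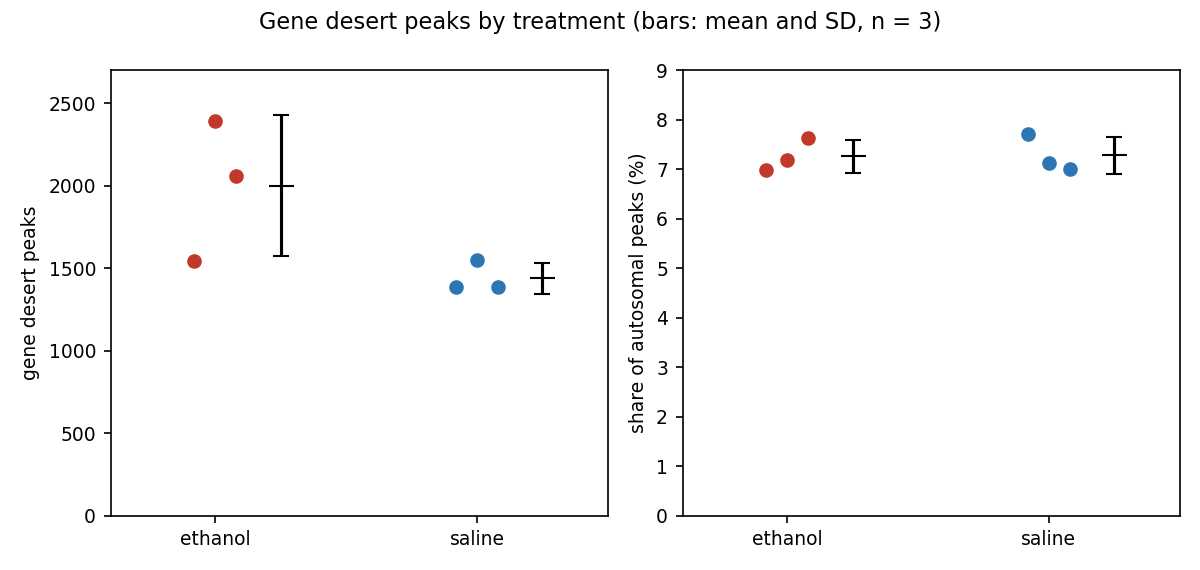
Number of gene desert peaks (left) and their share of all autosomal peaks in percent (right) in each library; coloured points are the 3 libraries of a treatment and black bars are the mean and SD. The numbers ran from 1384 to 2395 and overlapped between the treatments, and the shares lay between 6.98% and 7.72%.

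Covered length and density gave the same picture. Gene desert peaks covered 1.32 ± 0.299 Mb with ethanol and 0.931 ± 0.0653 Mb with saline (SD, n = 3 each; exact permutation p = 0.2). Their median CpG density was 3.44 ± 0.264 per 100 bp with ethanol and 3.74 ± 0.132 with saline, and their median soft-masked share was 92.7% ± 3.497 and 95.9% ± 0.744 (exact permutation p = 0.2 for each; n = 3 each). None of the 7 measures separated the treatments. Without ethanol 2, which had the longest list, the differences were 363.667 peaks in place of 560.667, 0.260 Mb in place of 0.393, -0.160 CpG per 100 bp in place of -0.302 and -1.27 percentage points of masking in place of -3.20. With lists of equal length they were 52.7 peaks, 0.0919 Mb, -0.0769 CpG per 100 bp and -0.880 percentage points.

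The DNA of the deserts held fewer peaks per Mb than the rest of the autosomes, coding genes included. Per CpG, the difference from that rest did not pass the test. Within intergenic sequence alone, mean peaks per CpG were lower beyond 500 kb than from 50 to 500 kb, as given below. Desert territory, counted as assembled sequence over 500 kb from every RefSeq coding start and outside coding genes, came to 253 Mb, which is 10.6% of the assembled autosomes. Its CpG density was 0.514 per 100 bp against 0.891 in the rest, and 41.7% of it was soft-masked against 32.5%. Peaks per Mb of desert territory were 5.54, 8.57 and 7.46 in the ethanol and 4.99, 5.60 and 4.98 in the saline libraries. Outside it the same libraries had 9.67, 14.5 and 11.7, and 7.78, 9.48 and 8.63. Density was thus lower in the desert in 6 of 6 libraries, on average 6.19 ± 1.48 against 10.3 ± 2.46 peaks per Mb (SD, n = 6), a ratio of 0.601 (exact sign-flip permutation p = 0.031, the smallest that 6 libraries allow; adjusted p = 0.0365 over 7 measures). Per 1000 CpG the values were 1.21 ± 0.288 in the desert and 1.16 ± 0.276 outside, higher in the desert in 5 of 6 libraries, with differences from -0.00674 to 0.135 (exact permutation p = 0.094; n = 6). With each list shortened to its 18922 most significant peaks, the desert had the higher value per CpG by 0.0770 (exact permutation p = 0.031, also the adjusted p; n = 6). With chromosome 12 from 18 to 25 Mb left out, a setting chosen after seeing the data, it was higher by 0.0398 (exact permutation p = 0.219, n = 6).

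Peak density was lower with each step of distance from 50 to 750 kb and nearly level beyond. Intergenic sequence 50 to 100 kb from a start held 13.7 ± 2.77 peaks per Mb with ethanol and 10.1 ± 1.04 with saline (SD, n = 3 each). At 250 to 500 kb these densities were 9.60 ± 2.22 and 6.69 ± 0.685, and at 500 to 750 kb they were 7.62 ± 1.73 and 5.38 ± 0.348. Beyond 750 kb the mean densities stayed between 6.78 and 7.01 with ethanol and between 4.99 and 5.13 with saline. CpG density of the sequence was lower along the same bins, from 0.925 per 100 bp within 50 kb to 0.484 beyond 1500 kb. Peaks per 1000 CpG, averaged over the 6 libraries, lay between 1.20 and 1.47 in the 8 bins.

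**Figure D2:**
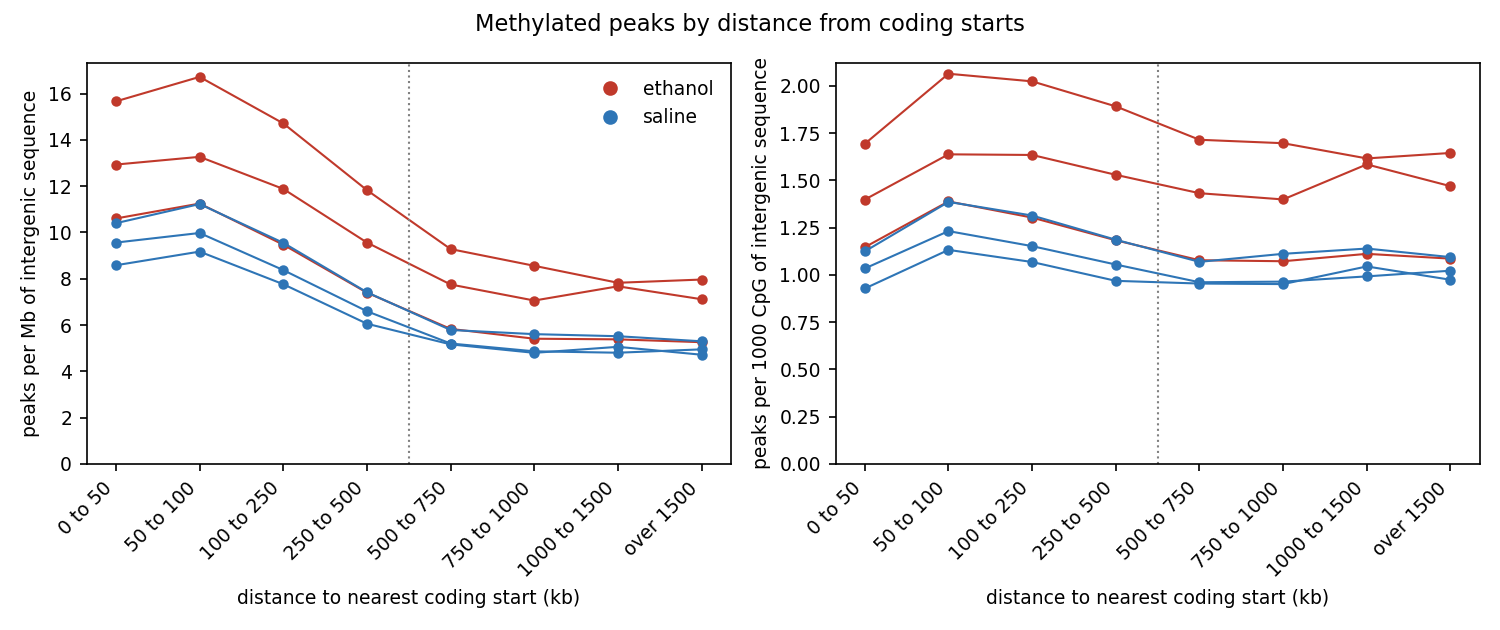
Intergenic peaks per Mb (left) and per 1000 CpG (right) against the distance to the nearest RefSeq coding start in kb; each line is a library, red for ethanol and blue for saline, and the dotted line marks 500 kb. Peaks per Mb dropped from 9.17 to 16.7 across libraries at 50 to 100 kb to 4.72 to 7.97 beyond 1500 kb, while the mean per 1000 CpG stayed between 1.20 and 1.47.

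Repeats filled the gene desert peaks. Median soft-masked shares were 95.7%, 88.9% and 93.6% in the ethanol and 96.6%, 95.2% and 96.0% in the saline libraries. Other intergenic peaks of the same lists had 62.6%, 55.1% and 55.8%, and 66.9%, 61.9% and 63.95%. The gap was positive in 6 of 6 libraries, with means of 94.3% ± 2.86 and 61.0% ± 4.67 (SD, n = 6; exact permutation p = 0.031, adjusted p = 0.0365). Copy number told the sequences apart in the same way. Copies were counted as exact matches of 5 words of 31 bases per region in the assembled chromosomes, taking the median. Of 3218 gene desert regions, 42.6% were single-copy and 31.7% had over 100 copies, against 69.6% and 14.1% of 30015 other intergenic regions. Per library, 31.7% ± 4.46 of gene desert peaks and 61.8% ± 3.25 of other intergenic peaks lay in single-copy regions, lower in 6 of 6 libraries (SD, n = 6; exact permutation p = 0.031, adjusted p = 0.0365).

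CpG content was also higher in gene desert peaks, but not among single-copy regions. Medians per 100 bp were 3.68, 3.16 and 3.49 CpG in the ethanol and 3.83, 3.59 and 3.81 in the saline libraries. For other intergenic peaks they were 2.72, 2.43 and 2.71, and 3.11, 2.51 and 2.92. The mean difference was 0.860 ± 0.143 per 100 bp, positive in 6 of 6 libraries (SD, n = 6; exact permutation p = 0.031, adjusted p = 0.0365). Gene desert peaks were longer by 18.8 ± 4.67 bp, with means of 582.5 and 563.7 bp, and ranked higher by 6.62 ± 1.49 percentile points of -log10 q within their list (same test and p). When single-copy regions alone were compared, a setting chosen after seeing the data, these 3 differences changed sign. They became -0.157 CpG per 100 bp (exact permutation p = 0.125), -13.2 bp (p = 0.031) and -3.36 percentile points (p = 0.063) over the same 6 libraries, and none passed after adjustment (adjusted p = 0.125, 0.063 and 0.083). The soft-masked share remained higher by 19.9 percentage points (exact permutation p = 0.031, adjusted p = 0.063, n = 6). The placing of reads that match several copies is not stated, and its part in the ranks was not tested.

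**Figure D3:**
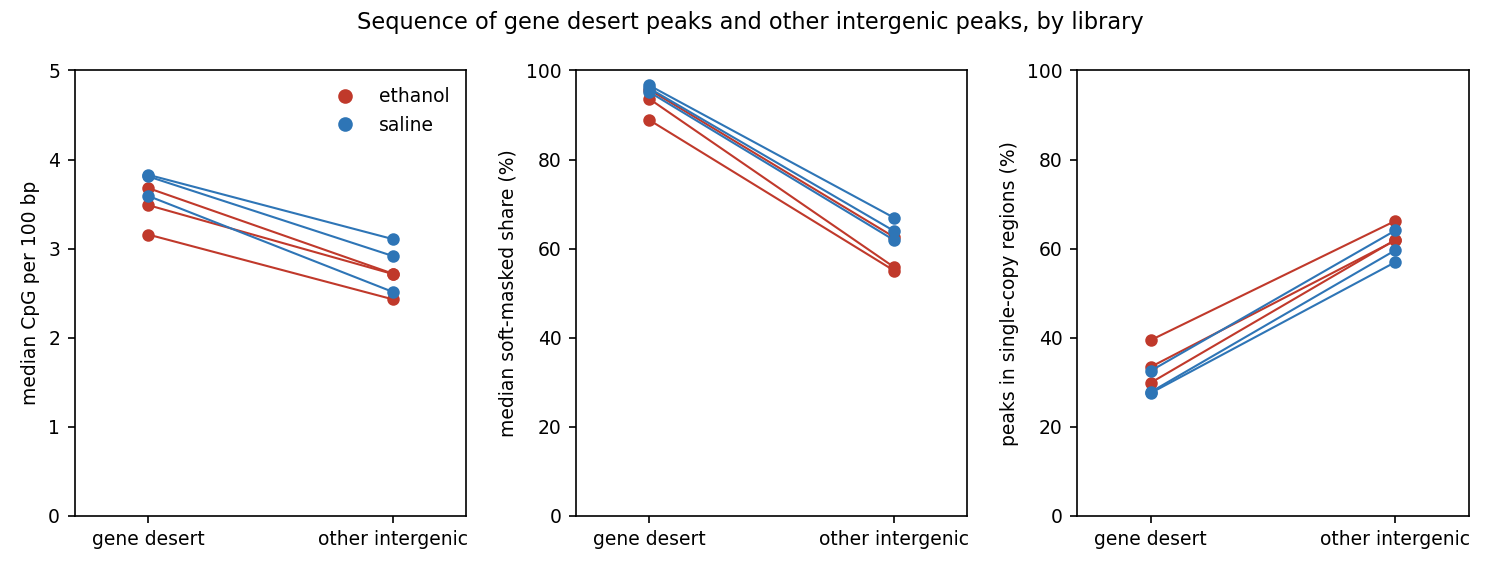
Median CpG per 100 bp, median soft-masked share in percent and percent of peaks in single-copy regions, for gene desert and other intergenic peaks; each line joins the 2 values of a library, red for ethanol and blue for saline. All 6 libraries had more CpG, a higher soft-masked share and a lower single-copy share in the desert.

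Peaks of the different copy classes did not differ equally in number between the treatments, as a description. Single-copy gene desert regions had 461, 944 and 689 peaks in the ethanol and 381, 504 and 385 in the saline libraries, a ratio of means of 1.65. Regions with over 100 copies had 606, 807 and 785 against 580, 589 and 573 peaks, a ratio of 1.26. The single-copy counts overlapped between the treatments (461 in ethanol 1, 504 in saline 2), while the counts over 100 copies did not. Both ratios stand beside the whole autosomal lists, which held 22127 to 33351 peaks with ethanol and 17934 to 21737 with saline. Those whole lists did not overlap. As a share of the gene desert peaks of a library, single-copy regions made up 29.8%, 39.4% and 33.4% with ethanol and 27.5%, 32.5% and 27.8% with saline. Regions with over 100 copies made up 39.2%, 33.7% and 38.1% against 41.9%, 38.0% and 41.3%. In both classes the shares overlapped between the treatments, and no test was made.

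CpG density and copy number were higher in regions that more libraries held, as a description. Of the gene desert regions, 842 (26.2%) had a peak in all 6 libraries and 1091 (33.9%) in 1 library, and of other intergenic regions 20.8% and 34.7%. Regions of 1 library had a median of 1.60 CpG per 100 bp and those of all 6 had 4.08, and the median soft-masked share was 66.7% and 98.5%. The single-copy share was 58.2% in regions of 1 library and 17.2% in regions of all 6, whose median was 96.5 copies.

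**Figure D4:**
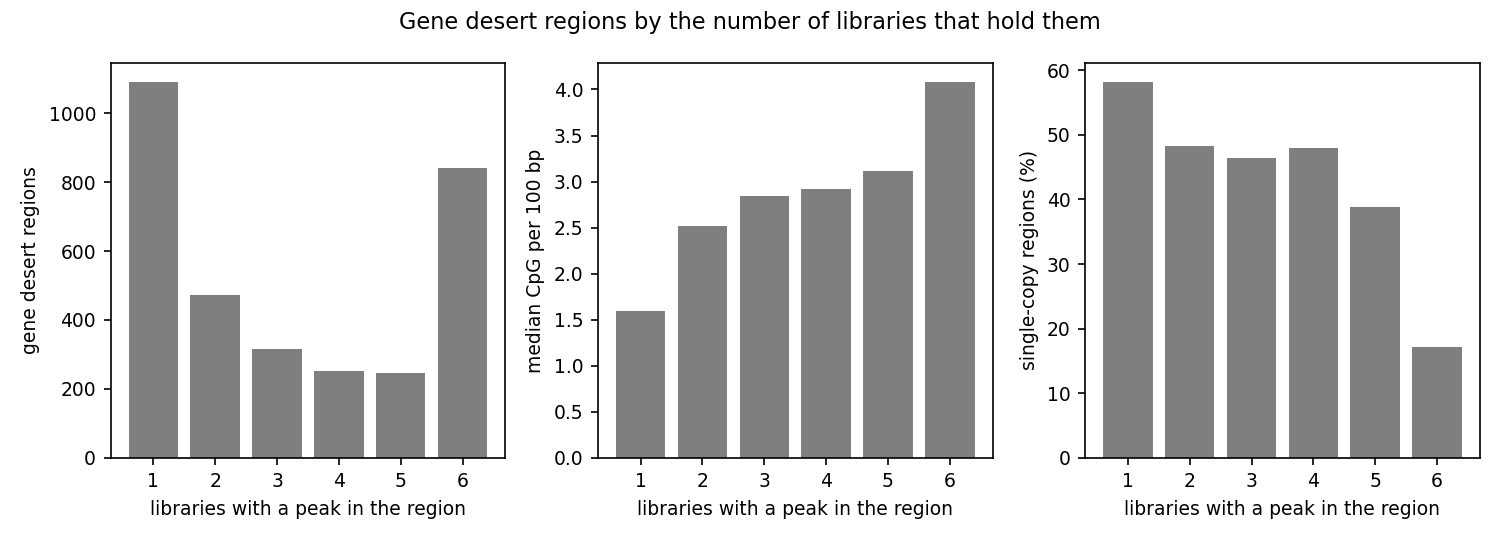
Number of gene desert regions, their median CpG per 100 bp and the percent that are single-copy, by the number of libraries with a peak in the region. The 842 regions of all 6 libraries had a median of 4.08 CpG per 100 bp and 17.2% were single-copy, against 1.60 and 58.2% for the 1091 regions of 1 library.

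Of the regions found in every library, the 8 ranked highest by q included both Lrrc4c regions shown above. The first (chr2:98666612-98667662) had a summit pileup, the authors' count of overlapping tags, of 1910, 1911 and 1912 in the ethanol and 1913, 1912 and 1910 in the saline libraries. Its pileup differed by 3 tags over the 6 libraries. How duplicate reads were handled is not stated, and whether that handling sets the value was not tested, so it is not read as a level of enrichment. The second (chr2:98662319-98663380) had 1368, 1412 and 1436, and 1337, 1431 and 1356. GENCODE lists the predicted coding genes Gm10800 and Gm10801 at these summits, which the authors' annotation did not count as genes. Their 31-base words had a median of 2 copies in the assembled chromosomes, and copies in unassembled sequence were not counted. The Rgs18 region, near the gene of a regulator of G protein signalling (chr1:145527561-145528502), had 555 copies and a pileup of 597 to 869. Regions near Stim2, a calcium sensor of the endoplasmic reticulum, Man1a, a mannosidase of N-glycan processing, and Tmprss15, the intestinal protease enteropeptidase, had 433, 531 and 494 copies. Of 2 regions near Asap2, which encodes a GTPase-activating protein for Arf, one had 267 copies. The other (chr12:20233452-20234644) was single-copy, 12.7% soft-masked and rich in CpG, with 4.79 per 100 bp, and lay in the noncoding gene Gm49692 of GENCODE. Fold enrichment over local background, the authors' ratio, was 7.01 to 8.57 there and 14.1 to 15.5 at the Man1a region.

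Presence in 3 of 3 ethanol and 0 of 3 saline libraries was found for 48 gene desert regions, 1.49% of the 3218, where the percentage among all autosomal regions was 1.47. The reverse pattern was found for 5 regions, 0.155%, where it was 0.109 among all autosomal regions. Both shares lay near the background. With lists of equal length the counts were 12 and 11 of 2356 regions, against 0.598 and 0.542 percent of all autosomal regions, so the excess of ethanol-specific regions was not present there. Leaving out a library loosens the rule, since fewer libraries must hold or lack a peak, so higher counts were set in advance. The count of ethanol-specific regions was then 226 without ethanol 1, 75 without ethanol 2 and 94 without ethanol 3. It was 78, 100 and 86 without saline 1, saline 2 and saline 3. The count of saline-specific regions was 7, 12 and 10 without ethanol 1, ethanol 2 and ethanol 3. It was 14, 8 and 9 without saline 1, saline 2 and saline 3. These counts do not show how far the result rests on 1 library. A single region cannot pass a test at 3 against 3, so the regions below are descriptions.

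The 8 ethanol-specific regions with the highest ranks lay nearest to Efnb2, Cdh2, Grik2, Galr1, Slitrk1, Nlgn1, Cdh11 and Luzp2. At the Efnb2 region (chr8:7163579-7164206), 1497 kb from the start, the pileup was 44, 36 and 40 in the ethanol libraries, with no peak in the saline libraries. At the single-copy Grik2 region (chr10:47783959-47784559), 2005 kb from the start, it was 32, 33 and 41. Slitrk1, which encodes a synaptic adhesion protein with leucine-rich repeats, had such a region 1236 kb away (chr14:107678043-107678582), with 31, 53 and 38 tags. The region at Nlgn1, the gene of neuroligin 1 (chr3:25276093-25276707), had 52, 80 and 55 tags, and 114 copies in the genome. It lay 877 kb from the start in the authors' annotation, but 492 kb from the nearest RefSeq coding start. Cdh2 and Cdh11 encode cadherins, Galr1 a galanin receptor and Luzp2 a leucine zipper protein. Over all 48 regions, fold enrichment lay between 4.45 and 11.9, median CpG density was 2.99 per 100 bp and 41.7% were single-copy. Of their 43 nearest genes, Nlgn1 and Csmd3 had 3 such regions each, Cdh10 had 2 and the others 1.

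The 5 saline-specific regions were short of CpG except for 1. The Ctnnd2 region (chr15:29641037-29641657) had 27, 28 and 31 tags in the saline libraries and no peak in the ethanol libraries. The region nearest to Ywhaq, the gene of a 14-3-3 protein, had 31, 31 and 26 tags, and lay 120 kb from the nearest RefSeq coding start although the authors' annotation put the start of Ywhaq 1208 kb away. The others were nearest to Reep3, a protein that shapes the endoplasmic reticulum, Car10, a protein related to carbonic anhydrases, and Tmpo, a protein of the nuclear lamina. Peak CpG densities were 0 at Ctnnd2, 0.371 per 100 bp at Ywhaq, 0.208 at Tmpo, 0.833 at Car10 and 3.96 at Reep3. Of all gene desert regions, 344 had under 0.5 CpG per 100 bp. Among these, 36.6% held an unbroken run of at least 10 CA or TG units, against 8.66% of the other regions. This was not particular to the deserts. Of other intergenic peaks under the same limit, 33.1% to 36.9% per library held a run, against 9.54% to 12.3% of those above it. Regions under this CpG limit, with or without a run, made up 3 of the 5 saline-specific and 2 of the 48 ethanol-specific regions; none of the 5 saline-specific regions held such an unbroken run. Per library, peaks under this CpG limit were 5.63%, 9.06% and 5.33% of gene desert peaks with ethanol and 5.42%, 8.19% and 5.05% with saline, and the groups overlapped. They were 6.83% to 11.7% of other intergenic peaks, a higher share than in the deserts in every library.

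Flanking genes were few in number. The authors' annotation named 505 genes as nearest to the 3218 regions, 3.98% of the 12681 autosomal genes that the lists name, with a median of 4 regions per gene. Of these, 107 genes had at least 10 regions and 75 had 1. The 10 genes with the most regions were 5730507C01Rik with 34, Pcdh7 with 32, Asap2 with 31, 9030624G23Rik, Pcdh9 and Tbl1xr1 with 29 each, Dsel with 27, Lphn2 with 26, and Cntnap5a and Lrrc4c with 25 each. The regions of 5730507C01Rik, Asap2 and 9030624G23Rik lay in a cluster on chromosome 12, and 11.8%, 6.45% and 3.45% of them were single-copy. In that cluster, described below, 46 of 119 regions were over 500 kb from a RefSeq coding start. Pcdh7 and Pcdh9 encode protocadherins, Tbl1xr1 a subunit of a corepressor complex, Lphn2 an adhesion receptor of the latrophilin family and Cntnap5a a relative of the contactin-associated proteins. Around Pcdh7 there were 16, 23 and 21 peaks in the ethanol and 14, 16 and 15 in the saline libraries, and around Pcdh9 13, 22 and 19 and 13, 11 and 11. The groups touched or overlapped at both genes. At Lphn2, 73.1% of the regions were single-copy and the median CpG density was 1.77 per 100 bp, while at Tbl1xr1 24.1% were single-copy and the median was 3.83.

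Genes of neuronal adhesion flanked many of the deserts. Of 20 cadherin genes named in the lists, 11 (55%) were nearest to a gene desert region, with 148 regions between them, and of 10 non-clustered protocadherins 6 (60%) were, with 122 regions. The corresponding value for all autosomal genes named was 3.98%. Cdh20 had 24 regions, Cdh8 23, Cdh2 21, Cdh9 19, Cdh6 16, Cdh11 15, Cdh10 9, Cdh18 8 and Cdh7 7. Among the protocadherins, Pcdh20 had 18, Pcdh10 15, and Pcdh17 and Pcdh18 14 each, beside Pcdh7 and Pcdh9. Leucine-rich repeat proteins that organise synapses were nearest for 11 of 18 genes (61.1%), led by Lrrc4c with 25, Slitrk5 with 20, Lrfn5 with 15 and Slitrk1 with 12 regions, while Lrrtm1 and Lrrtm3 had 11, Flrt2 10, Lingo2 7 and Slitrk6 6. Neurexins, neuroligins, contactins and teneurins also gave 11 of 18. Cntnap5a had 25 regions, Cntnap5b 23, Nlgn1 19, Tenm3 17, Tenm2 12, and Cntn5, Cntnap2 and Tenm4 8 each. Together, 39 of the 66 genes of these 4 lists that the peak lists name were nearest to 518 regions, 16.1% of all gene desert regions. The lists were chosen with results of these data known, and a list's share also depends on how isolated its genes are, so no test was made.

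Lower shares were counted for the lists that follow, with no test. Axon guidance genes gave 13 of 37, with 16 regions at Efna5, 15 at Robo1, 13 at Efnb2, 11 at Epha7, 9 at Slit2, 7 at Epha4 and Unc5d and 5 at Epha6. Developmental transcription factors gave 29 of 139, with 17 regions at Bcl11b, 15 at Zeb2, 11 at Nr2f2 and Pou3f2, 9 at Sall3 and 5 at Bcl11a, Bnc2 and Pou3f3. Glutamate receptor genes gave 7 of 24, with 11 regions at Grik2 and 8 at each of the metabotropic receptors Grm3 and Grm8. Voltage-gated potassium channels gave 3 of 33, Kcnv1 with 14 regions, Kcnd2 with 11 and Kcna4 with 9. Of 29 ribosomal protein genes, Rps29 was nearest, to 8 regions. Olfactory receptors, which lie in dense clusters, gave 2 of 317, Olfr1507 with 4 and Olfr161 with 2 regions, and vomeronasal receptors 0 of 199.

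Peak numbers near these genes are given beside their share of the gene desert peaks of the library, since every ethanol list was longer than every saline list. Cadherin genes were nearest to 74, 117 and 99 peaks in the ethanol and 66, 70 and 72 in the saline libraries, which is 4.79%, 4.89% and 4.80% against 4.77%, 4.52% and 5.19%. Near the non-clustered protocadherins there were 64, 92 and 81 against 54, 61 and 52 peaks, or 4.14%, 3.84% and 3.93% against 3.90%, 3.94% and 3.75%. For both lists the shares overlapped between the treatments. Leucine-rich repeat genes had 59, 89 and 80 against 60, 60 and 51 peaks, with shares of 3.68% to 4.34% over the 6 libraries. The neurexin and teneurin list had 63, 95 and 86 against 54, 57 and 54, or 4.08%, 3.97% and 4.17% against 3.90%, 3.68% and 3.89%. For this list, and for the ribosomal protein list with 2 to 6 peaks per library, the ethanol shares lay above the saline shares, while they did not separate for the other lists reported. None of these counts and shares were tested.

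Deserts between neighbouring coding genes of RefSeq held 3096 of the regions, in 298 stretches. The other 122 regions lay inside a coding gene of that annotation. The longest stretch, from Tenm3 (a teneurin) to Aga (a lysosomal amidase) on chromosome 8, measured 4.84 Mb and had 38 regions. From Pcdh20 to Pcdh9 on chromosome 14, 4.54 Mb held 42 regions, with 22, 30 and 29 peaks in the ethanol and 18, 21 and 18 in the saline libraries. As shares of gene desert peaks these were 1.42%, 1.25% and 1.41% against 1.301%, 1.35% and 1.298%, which overlap, and 12 of the 42 regions were found in all 6 libraries. The 3 regions farthest from a start also lay in this stretch, up to 2704 kb from Pcdh20. The next longest were Celf4 to Pik3c3 on chromosome 18 (4.52 Mb, 34 regions), Olfm4 to Pcdh17 (4.42 Mb, 23 regions) and Cntnap5b to Cdh20 (4.28 Mb, 45 regions).

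**Figure D5:**
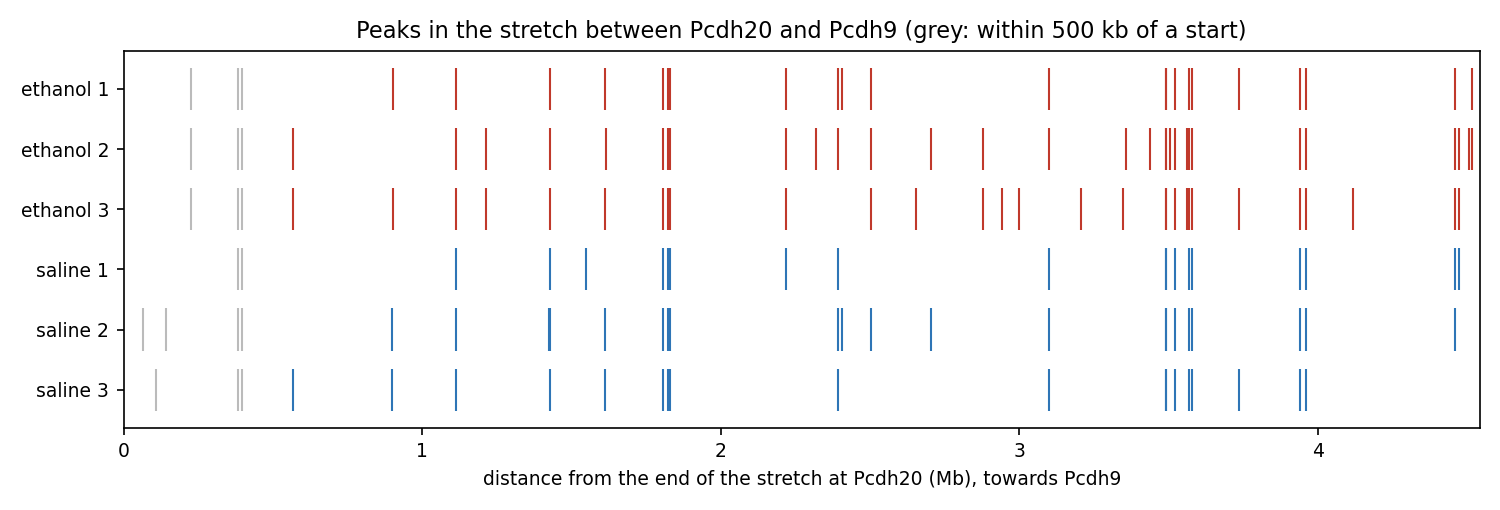
Peaks in the stretch between Pcdh20 and Pcdh9, as distance in Mb from its Pcdh20 end, with 1 line of marks per library; red marks are gene desert peaks with ethanol, blue with saline, and grey marks are intergenic peaks within 500 kb of a start. Of the 42 gene desert regions here, 12 had a peak in all 6 libraries.

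Density varied between deserts. Among 87 stretches with at least 1 Mb of desert territory, the number of regions per Mb of that territory ran from 5.74 to 20.1, with a median of 10.6. Of stretches with at least 10 regions, those with the most regions per Mb of their length were Gm5784 to Asap2 (27.98), Gm38538 to Gm17330 (26.3), Naaladl2 to Nlgn1 (20.4), Vrk1 to Bcl11b (20.2) and 5730507C01Rik to Gm5784 (19.9). In that order, these stretches held 0.724, 0.223, 0.138, 0.967 and 0 Mb of desert territory. Desert territory is counted from RefSeq starts, while the regions follow the authors' annotation. Of these 5 stretches, 3 lie between 18 and 25 Mb on chromosome 12, where 119 of the regions lay and 5.88% were single-copy. Of those 119 regions, 46 were over 500 kb from a RefSeq coding start. Their 4 nearest genes included 5730507C01Rik, Asap2 and 9030624G23Rik, which were counted above among the genes with the most regions. Vrk1 to Bcl11b, beside the gene of a zinc finger factor of neurons and T cells, was different in its sequence: 97.3% of its 37 regions were single-copy, and their median CpG density was 1.57 per 100 bp. It had 14, 23 and 20 peaks in the ethanol and 9, 22 and 16 in the saline libraries, which overlap. Naaladl2 to Nlgn1 had 7, 13 and 11 peaks in the ethanol and 6, 5 and 6 in the saline libraries. As shares of gene desert peaks these were 0.453%, 0.543% and 0.533% against 0.434%, 0.323% and 0.433%, which do not overlap. The shares of the other named stretches overlapped between the treatments, and no test was made.

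The distance threshold cut through a continuous range. Just inside it lay regions near Cbln4, Zfhx4 and Diap3, at 500.01, 500.03 and 500.28 kb, and just outside it regions near Zfhx4, BC030500 and Cd109, at 499.94, 499.91 and 499.89 kb. Both Zfhx4 regions are the same stretch of DNA, whose summit fell on either side of the threshold in different libraries. Of the gene desert peaks of a library, 93.5% to 94.3% were also over 500 kb from every RefSeq coding start, 87.1% to 87.9% had their summit in no GENCODE gene and 5.74% to 6.27% in a long noncoding RNA gene.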

How the data were processed

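DNA methylation was measured by MeDIP-seq in 6 libraries. Per the labels, reads of 150 cycles were aligned to mm10 with Bowtie (Bowtie2 2.1.0 per the submitters' processing notes) and MACS version 2 called peaks with a q threshold given as 1e-4. The authors deposited 1 list per library, so replicates were not pooled. Per the file headers, each peak has a summit pileup (a coverage signal), a fold enrichment (a ratio to local background) and a q-value; the deposited q column holds values on a −log10 scale, with a smallest value of 5.00 to 5.23. The deposited lists give no library totals, so read depth is unknown; a background pileup computed from the deposited pileup and fold had a floor of 1.85 to 2.65. An IgG immunoprecipitation was not analysed here.

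Gene desert members were selected and merged with Python 3.11.15, pandas 2.3.3 and numpy 2.4.6; on all 19 autosomes the last peak ended inside the GRCm38 reference. CpG, soft-masking, word copies and distances were computed from that reference, with RefSeq coding starts and GENCODE genes. Treatments were compared by two-sided exact permutation of the 6 libraries, and desert against other peaks by exact sign flips within libraries, each family adjusted by the Benjamini-Hochberg method over 7 measures. The single-copy share and the peaks per CpG were added after seeing the data. The tests and the merging were checked on small inputs with known answers, and the permutation between treatments also on simulated null data. Named items were the 10 genes with most regions, the 5 longest and 5 densest stretches, the top 8 regions per pattern, those farthest from and nearest to the threshold, genes of 12 lists with at least 5 regions, and every gene of a list with 5 or fewer such genes. A sequence and a gene list that these rules name are not reported here. Members and lists were chosen with earlier results of these data known. Alternatives were another distance, a −log10 q of at least 10, lists of equal length, chromosome ends left out, reference starts, other merging, each library left out, the replicate block, the cluster on chromosome 12 left out and single-copy regions only; the last 2 were chosen after seeing the data.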

Additional observations from a re-analysis of the deposited data

How the results depend on the processing

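Numbers, covered length and density of gene desert peaks, and their CpG and masked content between the treatments, kept their direction under every alternative run, but not their size: with lists of equal length the differences shrank to 52.7 peaks, 0.0919 Mb, 0.211 peaks per Mb, -0.0769 CpG per 100 bp and -0.880 percentage points, and with single-copy regions only to -0.030 CpG per 100 bp, while the masked share differed by -5.54 points. The difference between treatments in the share of autosomal peaks, -0.0241 percentage points, turned to 0.00742 with -log10 q of at least 10, to 0.296 with lists of equal length, and ran from -0.207 to 0.190 when each library was left out. As a share of intergenic peaks, the difference turned to 0.0129 and 0.354, and ran from -0.258 to 0.256. The reversals without 1 library were 0.117, 0.0177 and 0.190 (ethanol 1, ethanol 2, saline 1) for the first share and 0.139, 0.0263 and 0.256 for the second. With single-copy regions only, differences from other intergenic peaks became -0.157 CpG per 100 bp, -13.2 bp and -3.36 percentile points, and 19.9 percentage points of soft-masked share with an adjusted p of 0.063. Peaks per 1000 CpG differed from the rest of the autosomes, coding genes included, by 0.0770 and passed the threshold with lists of equal length. With the cluster on chromosome 12 left out, this difference was 0.0398 (exact sign-flip permutation p = 0.219, also the adjusted p). It passed in no other setting. Ethanol-specific regions numbered 18 and saline-specific 2 beyond 1 Mb, 12 and 11 with lists of equal length, and 20 and 3 among single-copy regions. Leaving out a library gave 75 to 226 and 7 to 14, a rise that the loosened rule sets in advance. The cause of the other changes was not tested.

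Leaving out 1 library leaves 5, which cannot give an exact sign-flip permutation p below 0.063, so no comparison within libraries could pass. Those differences ran from 0.816 to 0.887 CpG per 100 bp, 32.4 to 34.0 percentage points of masking, 17.4 to 19.8 bp, 6.06 to 6.92 percentile points, -4.38 to -3.74 peaks per Mb, -30.7 to -29.6 percentage points of single-copy share and 0.0308 to 0.0591 peaks per 1000 CpG. Same-numbered libraries did not deviate together (correlations of -0.176, -0.0253 and -0.0174 over 9757 regions), so the numbers were not taken as pairs; with the replicate block the difference of 560.667 gene desert peaks had an exact permutation p of 0.25, the smallest that 3 pairs allow. Depth limits presence: without read counts, a missing peak cannot be told apart from a shallow library.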
